A study of Mus musculus with 12 samples.

Results

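The p53 target genes described here are Mdm2, Cdkn1a, Ccng1, Bax, Bbc3, Pmaip1, Aen, Sesn1, Sesn2 and Trp53inp1, which are 10 of the 34763 gene names on the arrays. They were chosen by name, and 14 of the 55681 probes carry one of these names. For each gene the probe with the highest level averaged over the arrays was used. All 10 of these probes were well above background on all 12 arrays. Every gene therefore passed the filter on dim probes, and every value given below for these 10 probes is a measured one.

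RNA of sorted mouse skin cells was measured on 12 one-colour Agilent arrays, with 1 array in each of 12 groups. Hair follicle stem cells (HFSCs, sorted as CD34 high, ITGA6 high and SCA1 negative) came from plucked skin, 3 days after hair was pulled out by hand, and from unplucked skin. Both kinds were taken from aged wild-type mice (22 months or older), young wild-type mice (8 weeks), mice with a conditional knockout of Col17a1 under the K14 promoter (cKO, 12 weeks) and the wild-type controls of the cKO (12 weeks). The cKO and control mice had both received 2 mg of tamoxifen on 5 days. Interfollicular epidermal cells (IFE, ITGA6 high and SCA1 high) and total epidermal cells came from aged and young mice without plucking. The labels give C57BL/6 as the strain of all wild-type mice, and they do not say how many animals went into a sample. The K14 promoter is active in basal keratinocytes of the epidermis as well as in the follicle.

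p53, encoded by Trp53, is a transcription factor that accumulates after DNA damage and other stresses and binds DNA elements built of paired half-sites. Its targets feed back on p53 itself, halt the cell cycle, start cell death at the mitochondria, or adjust metabolism and repair. In skin it is best known for the response of keratinocytes to ultraviolet light, and bulge stem cells are known to survive DNA damage better than other epidermal cells.

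The promoter windows of the target genes were searched for the sequence that p53 recognises. RefSeq windows of the build GRCm38.p6, each with 250 bases before and 50 bases after a transcription start, were at hand for 8 of the 10 genes, in 13 windows. The p53 half-site, a palindromic consensus of 10 bases that reads the same on both strands, was found in windows of 6 of these 8 genes, Aen, Bax, Ccng1, Cdkn1a, Mdm2 and Sesn1, in 7 of the 13 windows, and in 8.36% of all 32851 windows. A match is a description of the letters and not evidence of binding. The stretches around the half-sites (capitals) of 4 of these genes are shown to let them be compared, each read along the gene's strand.
Bax, chr7:45467075-45467114, minus strand: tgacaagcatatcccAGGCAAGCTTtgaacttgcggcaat
Ccng1, chr11:40755447-40755486, minus strand: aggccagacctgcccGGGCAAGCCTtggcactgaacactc
Mdm2, chr10:117710920-117710959, minus strand: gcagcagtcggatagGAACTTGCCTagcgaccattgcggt
Sesn1, chr10:41887251-41887290, plus strand: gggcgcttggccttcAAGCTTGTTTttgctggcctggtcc

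Cdkn1a has 2 listed starts, which lie 2790 bases apart. The tighter motif CATGNNNNNNCATG, the core of 2 adjoining half-sites, occurred in 0.712% of all windows on either strand and, among the 13 windows of the target genes, only in that of the upstream Cdkn1a start, where it begins 48 bases before the start. One of the half-sites of that window, 51 bases before the start, overlaps it. The 120 bases before each Cdkn1a start are shown because the probes of this gene behaved differently after plucking, with the motif in capitals.
Cdkn1a upstream start, chr17:29090859-29090978, plus strand: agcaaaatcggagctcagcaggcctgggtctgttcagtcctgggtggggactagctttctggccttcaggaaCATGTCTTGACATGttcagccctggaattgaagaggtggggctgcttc
Cdkn1a downstream start, chr17:29093649-29093768, plus strand: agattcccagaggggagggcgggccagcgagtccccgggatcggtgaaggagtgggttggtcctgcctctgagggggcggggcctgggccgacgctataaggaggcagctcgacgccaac

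A level is the log2 processed intensity minus the 75th percentile of its array, so that 0 is as bright as that percentile, and levels are compared within a probe and never between probes. Spots well above background made up 49.7% to 64.9% of each array. The summed linear level of 10 HFSC markers was 74.8 to 88.7 in IFE and 84.7 to 85.8 in total epidermis, against 278 to 412 in plucked and 361 to 572 in unplucked HFSCs. T cell markers summed to 6.96 to 15.9 in IFE and total epidermis, against 0.81 to 3.21 in HFSCs. Col17a1 itself read 5.79 in plucked and 7.0 in unplucked cKO HFSCs, against 6.22 in plucked and 7.31 in unplucked control HFSCs, a difference of -0.37 ± 0.39 (SE) with a limma adjusted p of 0.923. The files do not say whether that probe lies in the deleted part, so the label of the cKO arrays was not checked by it. The unplucked cKO and control arrays correlated least with the others (median r 0.893 and 0.888). The plucking and cKO differences of the 10 genes are therefore also given without them.

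**Figure D1:**
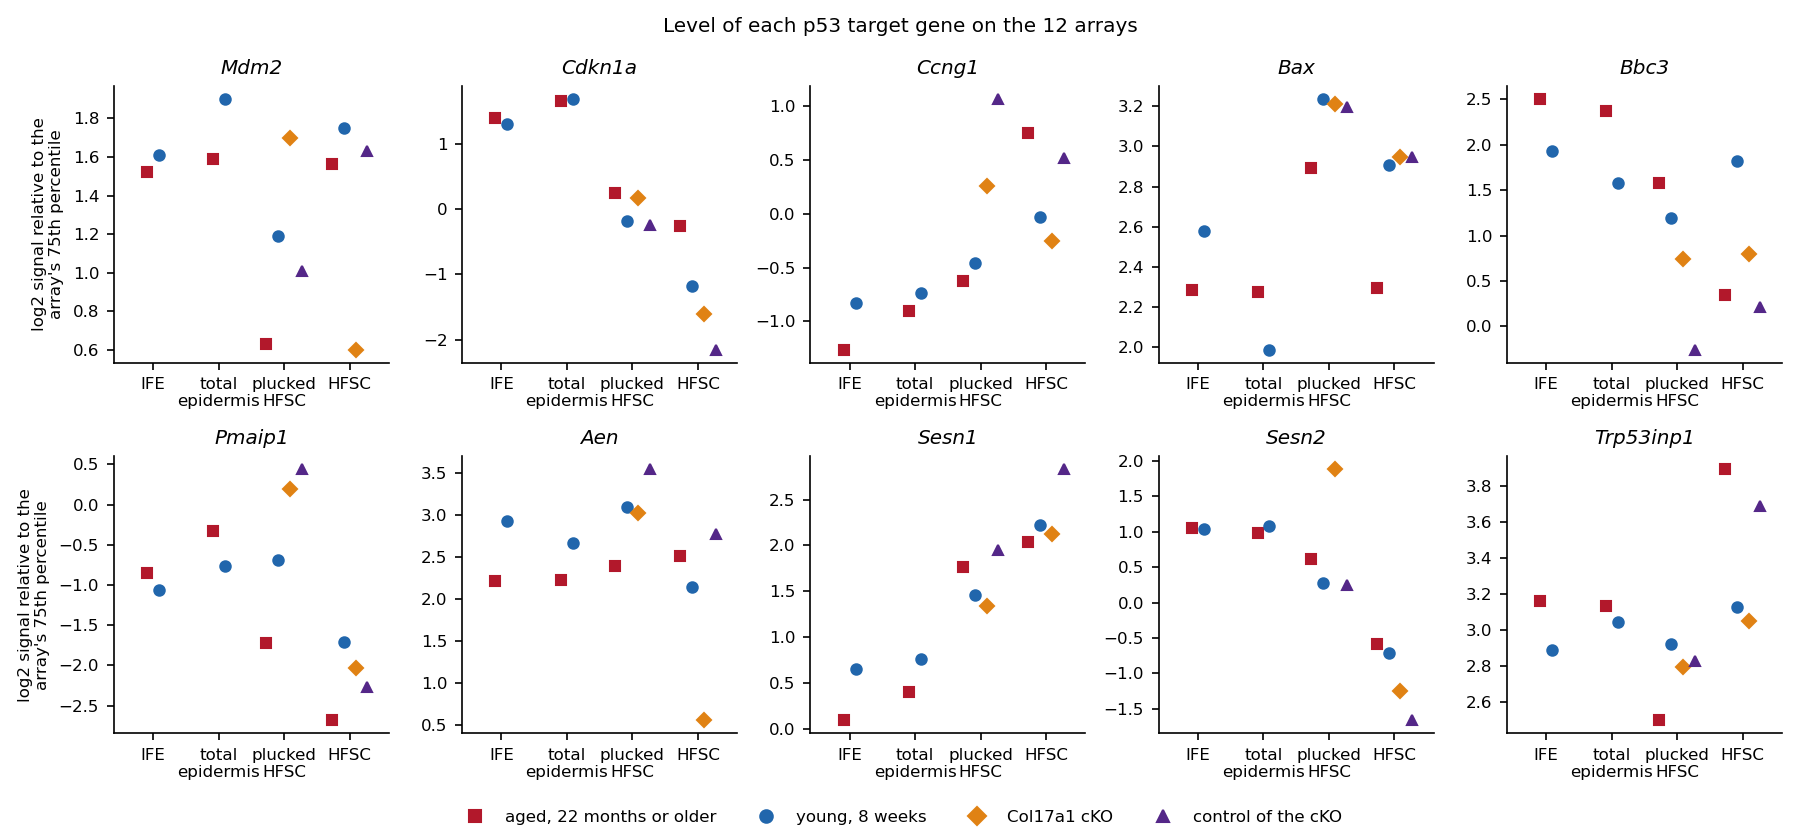
Level of each of the 10 genes on the 12 arrays, 1 symbol per array, as log2 signal relative to the array's 75th percentile. Columns are IFE, total epidermis, plucked HFSCs and unplucked HFSCs, and symbols are the mouse types. Cdkn1a and Sesn2 lie lowest and Sesn1 highest in unplucked HFSCs.

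The populations differed most clearly in 3 of the genes. In IFE against HFSCs, Sesn2 rose 3.23 times and Sesn1 fell 3.37 times. In total epidermis against HFSCs, Cdkn1a rose 5.22 times by the probe used for it. Both comparisons use the same unplucked HFSC arrays of aged and young mice, so their agreement is not an independent repetition. In both comparisons 4 genes were higher in both mouse ages, Cdkn1a, Sesn2 and Pmaip1 each time, joined by Bbc3 in IFE and by Mdm2 in total epidermis. Sesn1, Ccng1, Bax and Trp53inp1 were lower in both ages in both comparisons, and Mdm2 as well in IFE. For Bax the aged IFE pair was nearly equal, at 2.285 against 2.295. A second Trp53inp1 probe was lower in the aged pairs but higher in the young ones. It read 1.21 in young IFE and 1.06 in young total epidermis, against 0.87 in young HFSCs. The share of all genes higher in both ages was 37% in IFE and 34% in total epidermis, and the share lower was 27.4% and 27.2%. With 1 array per group, the spread came from additive fits of population and age over the 6 arrays of unplucked young and aged mice, with 2 residual degrees of freedom, so the p-values reflect nothing but the scatter among these arrays, which can be of technical origin. An adjusted p under 0.05 was reached by 2 of the 10 genes in IFE, beside 4.73% of all 23973 tested genes (2.1% higher and 2.64% lower). In total epidermis it was reached by 1 of the 10, beside 3.9% (1.87% higher and 2.02% lower). An unadjusted p under 0.05 was reached by 5 of the 10 in each comparison, beside 20.1% and 20.8%.

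Cdkn1a, which encodes the cyclin-dependent kinase inhibitor p21, was measured by a probe at chr17:29237377-29237436 (mm9). It read 1.64 and 1.69 in aged and young total epidermis and 1.39 and 1.30 in aged and young IFE, against -0.26 and -1.18 in aged and young HFSCs. The 4 epidermal arrays all lay above all HFSC arrays, plucked ones included. The difference was 2.38 ± 0.36 (SE) for total epidermis, with a limma adjusted p of 0.0448, and 2.06 ± 0.36 for IFE, with a limma adjusted p of 0.0530. The probe is spotted repeatedly, and 10 spots per array, with an SD of 0.06 to 0.10 between them, made up each of these levels. A dimmer Cdkn1a probe, at chr17:29235299-29235358 (mm9), went the same way with much smaller differences. It read -2.39 and -2.40 in aged and young total epidermis, against -2.47 and -2.95 in aged and young HFSCs. In aged and young IFE it read -2.14 and -2.12.

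Sesn2 and Sesn1 encode sestrins, stress proteins that restrain the growth kinase complex mTORC1. Sesn2 (chr4:132048858-132048917, mm9) read 1.05 and 1.03 in aged and young IFE and 0.98 and 1.07 in aged and young total epidermis, against -0.58 and -0.72 in aged and young HFSCs. The epidermal values were nearly level with each other, and the difference in IFE was 1.69 ± 0.27 (SE, limma adjusted p = 0.0452). In total epidermis it was 1.68 ± 0.27 (limma adjusted p = 0.0503). Sesn1 (chr10:41628012-41628071, mm9) ran the other way, at 0.09 and 0.66 in aged and young IFE and 0.40 and 0.76 in aged and young total epidermis, against 2.04 and 2.22 in aged and young HFSCs. It fell by 1.75 ± 0.28 in IFE (SE, limma adjusted p = 0.0449) and read -1.54 ± 0.28 in total epidermis (limma adjusted p = 0.0625). These 3 calls lie close to the threshold. Each of the 6 arrays that was left out of the fit ended the 2 calls in IFE, with limma adjusted p of 0.0774 to 0.295 for Sesn1 and 0.0782 to 0.276 for Sesn2. The call of Cdkn1a in total epidermis ended when any 1 of 5 arrays was left out, with the exception of the aged HFSC array (limma adjusted p of 0.0594 to 0.227). The directions of all 3 genes were kept under every alternative and array left out.

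Of the other genes, Pmaip1, which encodes the BH3-only death protein NOXA, read -0.86 and -1.07 in aged and young IFE and -0.33 and -0.76 in aged and young total epidermis, against -2.68 and -1.71 in aged and young HFSCs. Its groups did not overlap, and the limma adjusted p was 0.224 in IFE and 0.135 in total epidermis. Ccng1, which encodes cyclin G1, a partner of the phosphatase PP2A that acts on Mdm2, read -1.26 and -0.83 in aged and young IFE, against 0.75 and -0.03 in aged and young HFSCs, with a limma adjusted p of 0.147. Mdm2, the ubiquitin ligase that marks p53 for destruction, differed by -0.09 ± 0.27 in IFE and 0.09 ± 0.27 in total epidermis (SE), with 95% intervals of -0.79 to 0.61 and -0.61 to 0.79. These were the smallest differences of the 10 in either comparison. Groups did not overlap for 6 of the 10 genes in IFE, 4 higher and 2 lower, beside 46.4% of all tested genes (25.9% higher and 20.5% lower). In total epidermis they did not overlap for 6, 3 higher and 3 lower, beside 48% (26.1% higher and 21.9% lower).

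Other gene lists moved with these populations. Of 13 measured immediate early and dissociation stress genes, 5 rose in IFE (Fos, Fosb, Atf3, Dusp1 and Nr4a1) and 3 in total epidermis (Fos, Fosb and Atf3), with none lower past the threshold. Both comparisons also called 2 keratinocyte markers higher (Krt1 and Ly6a, the gene of the sorting marker SCA1), 2 fibroblast markers lower (Col1a1 and Col1a2), and of the melanocyte markers Pmel higher and Mitf lower. The keratinocyte list of 6 genes was mixed in IFE, with 3 higher and 3 lower in both ages and a median of 0.08. In total epidermis 4 of them were higher and 1 lower in both ages, with a median of 1.16. In total epidermis 2 T cell markers (Cd3e and Cd3g) and 1 G2 and M phase gene (Aurka) rose, and 5 of 6 Langerhans and myeloid genes were higher in both ages, with a median of 2.16 and none past the threshold. Fos was 13.7 times and Fosb 16.2 times higher in IFE. The summed level of that list was 326 to 575 in IFE and 294 to 489 in total epidermis, against 133 to 232 in unplucked HFSCs, and the part of these lists in the levels of the target genes was not tested. Of 15 genes for p53 and its regulators none passed in either comparison, with a median difference of 0.11 in IFE and 0.10 in total epidermis. Trp53 itself differed by 0.47 ± 0.40 in IFE and 0.01 ± 0.40 in total epidermis (SE). Of 29 tested further p53 targets none passed in IFE and 2 fell in total epidermis, Dram1, a regulator of autophagy that was well above background on 1 of the 2 total epidermis arrays, and Ak1, an adenylate kinase. The median difference of those 29 was 0.14 in IFE and 0.16 in total epidermis, beside 0.09 and 0.07 over all genes. Each population, plucked HFSCs included, occupied its own column of the first slide, so the population and the slide column cannot be told apart there. In such bulk samples, fewer cells of a type and less RNA per cell cannot be told apart either.

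Plucking, which sets resting follicles to growth, raised no target gene past the threshold, but several moved the same way in all 4 mouse types. Sesn2, Pmaip1, Cdkn1a and Bax were higher in plucked HFSCs in 4 of 4 pairs, and Sesn1 and Trp53inp1 were lower in 4 of 4. The fit covered the 8 HFSC arrays with mouse type and plucking as terms and 3 residual degrees of freedom. Of 25438 genes tested, 0.499% passed the adjusted threshold (0.393% higher and 0.106% lower) and none of the 10 did. Agreement of all 4 pairs was found for 6 of the 10, and for 29.2% of all genes (14% higher and 15.2% lower). An unadjusted p under 0.05 was reached by 4 of the 10, Cdkn1a, Pmaip1, Sesn1 and Sesn2, and by 17.5% of all genes.

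Sesn2 read 0.62, 0.28, 1.88 and 0.25 in plucked HFSCs of aged, young, cKO and control mice, against -0.58, -0.72, -1.25 and -1.66 in their unplucked HFSCs. The groups did not overlap, and the plucked cKO array stood highest of all 12. The difference was 1.81 ± 0.43 (SE), or 3.51 times, with a limma adjusted p of 0.135. Pmaip1 read -1.72, -0.69, 0.19 and 0.44 in plucked HFSCs of aged, young, cKO and control mice, against -2.68, -1.71, -2.03 and -2.27 in unplucked HFSCs. The plucked aged array lay just under the unplucked young one, so the groups touched, although each pair differed by at least 0.96. The difference was 1.73 ± 0.40 (SE), or 3.31 times, with a limma adjusted p of 0.132. Without the unplucked cKO and control arrays it was 0.99 for Pmaip1 and 1.10 for Sesn2, against pairs of the cKO and control mice that differed by 2.22 and 2.71 for Pmaip1 and by 3.13 and 1.91 for Sesn2. No gene of the arrays passed limma's test in the fit without them.

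Cdkn1a read 0.25, -0.19, 0.17 and -0.25 in plucked HFSCs of aged, young, cKO and control mice, against -0.26, -1.18, -1.60 and -2.15 in unplucked HFSCs. The groups were separated by the gap between the plucked control and the unplucked aged array alone, which was 0.01. The difference was 1.29 ± 0.33 (SE), or 2.45 times, with a limma adjusted p of 0.157, and 0.75 without the unplucked cKO and control arrays. The plucked arrays spanned a range of 0.50, the unplucked ones of 1.89. The repeated spots scattered more on the unplucked control and cKO arrays, with an SD of 0.44 and 0.21 over 10 spots each. The plucked control and cKO arrays had 8 spots each, with an SD of 0.06 and 0.11. Groups did not overlap and were higher for 2 of the 10 genes, Cdkn1a and Sesn2, beside 6.28% of all genes, and were lower for 2, Sesn1 and Trp53inp1, beside 4.42%. Together these were 4 of the 10, beside 10.7% of all genes.

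A further Cdkn1a probe, at chr17:29227986-29228045 (mm9), belongs to another transcript of the gene, NM_001111099, and lies upstream of the probe used above, which belongs to NM_007669. It was singled out after its values were seen. It was well above background on all 4 plucked and on none of the 4 unplucked HFSC arrays, as were 0.501% of the 38693 probes well above background on at least 2 of these arrays. It read -1.88, -2.56, -2.10 and -3.85 in plucked HFSCs of aged, young, cKO and control mice, with measured values of -5.14, -3.86, -5.08 and -4.27 in unplucked HFSCs. The mean of the plucked arrays was at least 2.05-fold higher than a mean of -3.63 set by the lowest signal well above background on the unplucked arrays. The control pair was closest, with measured values 0.42 apart. In IFE it was well above background in aged mice alone, and in total epidermis in young mice alone. Which of the 2 Cdkn1a starts shown above belongs to which transcript is not given in the sources used here. The dimmer Cdkn1a probe described with the populations, at chr17:29235299-29235358 (mm9), was well above background on 8 arrays, among them both states of aged and young HFSCs. It was lower in plucked HFSCs there, by -0.74 in aged and -0.58 in young mice, against the higher values of the probe used for the gene.

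**Figure D2:**
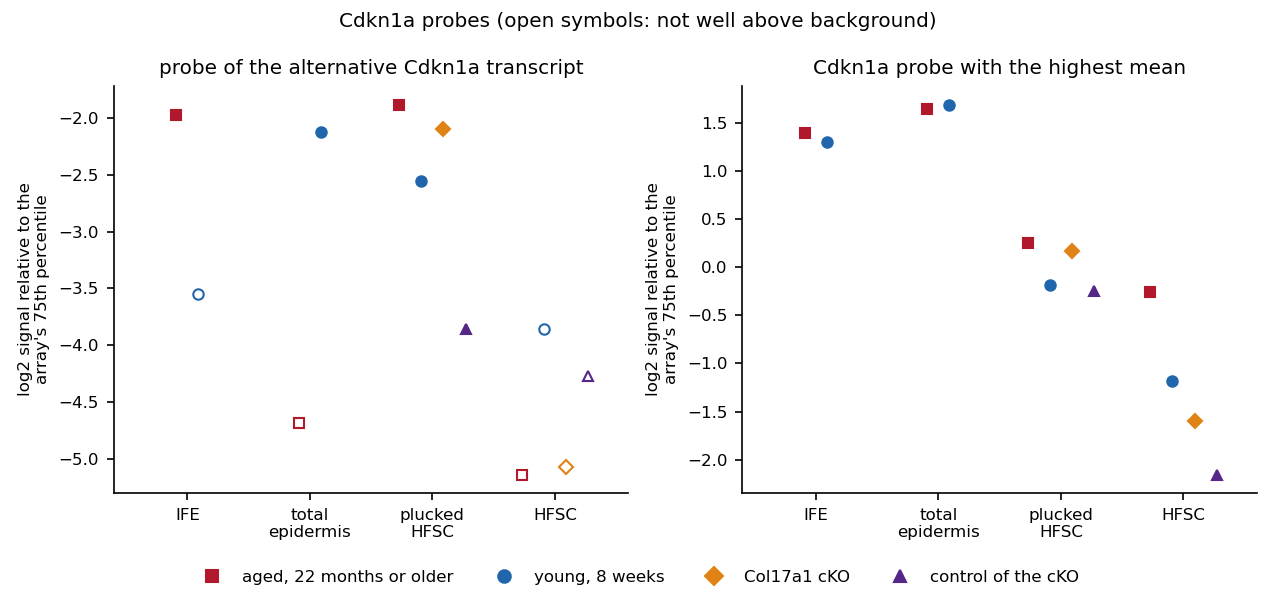
Level of 2 Cdkn1a probes on each array, the alternative transcript on the left and the probe used for the gene on the right, as log2 signal relative to the array's 75th percentile. Open symbols are not well above background, which holds for all 4 unplucked HFSC arrays on the left. The lowest signal that counts as well above background differs between arrays.

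The remaining genes of cell death were less even. Bax, which forms pores in the mitochondrial membrane, read 2.89, 3.24, 3.21 and 3.20 in plucked HFSCs of aged, young, cKO and control mice, against 2.29, 2.91, 2.95 and 2.94 in unplucked HFSCs. The pairs agreed in direction, and the difference was small at 0.36 ± 0.23 (SE, limma adjusted p = 0.465). Aen, an exonuclease of apoptotic DNA breakdown, read 2.40, 3.09, 3.02 and 3.54 in plucked HFSCs of aged, young, cKO and control mice, against 2.52, 2.14, 0.56 and 2.77 in unplucked HFSCs. It was higher in 3 of 4 pairs, with the largest step of 2.46 in the cKO pair, and differed by 1.02 ± 0.46 (SE, limma adjusted p = 0.334). Its second probe followed the first with r = 0.991 over the 12 arrays. Bbc3, which encodes the BH3-only protein PUMA, read 1.58, 1.19, 0.74 and -0.26 in plucked HFSCs of aged, young, cKO and control mice, against 0.35, 1.82, 0.80 and 0.22 in unplucked HFSCs. It was lower in 3 of 4 pairs and higher by 1.24 in aged mice, for a difference of 0.02 ± 0.39 (SE). Without the unplucked cKO and control arrays the difference was 0.46 for Bax, 0.42 for Aen and 0.31 for Bbc3.

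Sesn1 read 1.76, 1.46, 1.34 and 1.95 in plucked HFSCs of aged, young, cKO and control mice, against 2.04, 2.22, 2.13 and 2.83 in unplucked HFSCs. The groups did not overlap, by a gap of 0.08 between the plucked control and the unplucked aged array. The difference was -0.67 ± 0.24 (SE, limma adjusted p = 0.255). Trp53inp1, a stress protein that promotes p53 phosphorylation and autophagy, read 2.50, 2.92, 2.79 and 2.83 in plucked HFSCs of aged, young, cKO and control mice, against 3.90, 3.13, 3.05 and 3.69 in unplucked HFSCs. The difference was -0.68 ± 0.31 (SE, limma adjusted p = 0.333). Without the unplucked cKO and control arrays the difference was -0.52 for Sesn1 and -0.80 for Trp53inp1. The second Trp53inp1 probe did not follow the first, with r = 0.40 over the 12 arrays, and changed by -1.24, 0.01, -1.44 and 0.47 in the aged, young, cKO and control pairs.

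Mdm2 and Ccng1 went different ways in different mice. Mdm2 was lower in plucked HFSCs of aged (0.63, against 1.56), young (1.19, against 1.75) and control mice (1.01, against 1.63), and higher in those of cKO mice (1.70, against 0.60). Its plucking response in cKO mice differed from that of the other 3 mouse types together by 1.80 ± 0.59 (SE), with an unadjusted p of 0.0330 and a limma adjusted p of 0.565. The unplucked cKO array had the lowest Mdm2 level of all 12. Ccng1 read -0.62, -0.45, 0.26 and 1.07 in plucked HFSCs of aged, young, cKO and control mice, against 0.75, -0.03, -0.26 and 0.51 in unplucked HFSCs. It was lower in the aged and young pairs and higher in the cKO and control pairs. Without the unplucked cKO and control arrays the plucking difference was -0.74 for Mdm2 and -0.90 for Ccng1. None of the 10 passed when the plucking response of aged mice, or that of cKO mice, was set against that of the other 3 mouse types together, where 0% of all genes passed and 4.44% and 8.13% had an unadjusted p under 0.05.

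**Figure D3:**
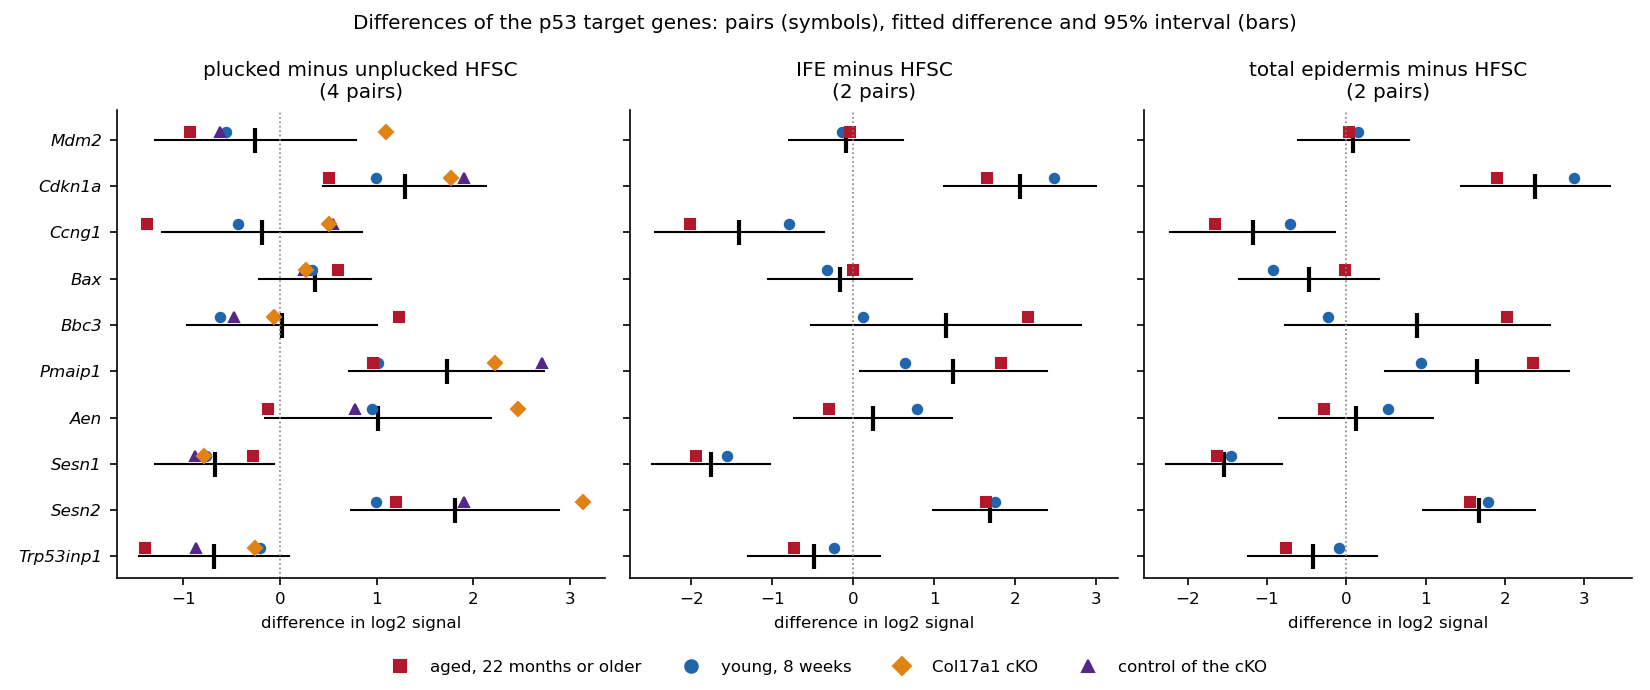
Differences in log2 signal of the 10 genes for plucked minus unplucked HFSCs (4 pairs), IFE minus HFSCs and total epidermis minus HFSCs (2 pairs each). Symbols are single pairs by mouse type, and bars are the fitted difference with its 95% interval. Cdkn1a, Pmaip1 and Sesn2 lie right of 0 and Sesn1 left of 0 for every pair in all 3 panels. The unplucked HFSC arrays of aged and young mice serve in all 3 panels, so the panels do not repeat each other independently.

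Cell cycle genes were higher as well. All 12 genes of the G2 and M phase list were higher in plucked HFSCs in 4 of 4 pairs, with a median difference of 3.92 against -0.06 over all genes, and 2 of them, Mki67 and Bub1, passed the test. Their summed level was 81.1 to 144 in plucked HFSCs, against 4.35 to 20.2 in unplucked HFSCs. Of 30 tested further p53 targets 2 rose, Gtse1 (at least 13.7-fold) and Ckap2 (50.8-fold), which are both known as genes of dividing cells, and 28 did not pass, with a median difference of 0.28. None of these 4 calls remained when any 1 of the 4 pairs, or the unplucked cKO and control arrays, was left out, since no gene of the arrays then passed. Of 15 genes for p53 and its regulators none passed, with a median of 0.44 and a range of -0.80 to 1.70. In all 4 pairs 5 of them were higher and 1 was lower, beside 14% and 15.2% of all genes. Trp53 read 2.62, 2.73, 2.80 and 2.82 in plucked HFSCs of aged, young, cKO and control mice, against 1.13, 1.79, 1.74 and -0.25 in unplucked HFSCs. The groups did not overlap, and the difference of 1.64 ± 0.43 (SE) had a limma adjusted p of 0.161. The largest step lay in the control pair, whose unplucked array correlated least with the others. The kinase genes Atr and Atm, upstream of p53, were also higher in 4 of 4 pairs, by 1.70 ± 0.23 and 1.13 ± 0.25 (SE), with limma adjusted p of 0.0649 and 0.127. Fibroblast markers summed to 2.07 to 2.47 in plucked HFSCs, against 4.27 to 9.18 in unplucked HFSCs, and melanocyte markers to 1.73 to 2.64, against 4.12 to 6.56. These sums follow their brightest genes: the median difference was 0.15 over the 4 fibroblast and 0.53 over the 6 melanocyte genes tested, and 1 of these genes passed, the melanocyte regulator Mitf, which fell (-2.84 ± 0.23, SE, limma adjusted p = 0.0447). The part of dividing cells or of these other cells in the differences of the target genes was not tested.

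Aged HFSCs had more Cdkn1a signal and less Pmaip1 and Bax signal than young ones in both states, none of it past the threshold. No gene of the arrays passed limma's test of age in HFSCs (0% of all genes), and an unadjusted p under 0.05 was reached by none of the 10 and by 4.82% of all genes. Cdkn1a was higher in aged HFSCs in both states, at 0.25 and -0.26 in plucked and unplucked aged HFSCs, against -0.19 and -1.18 in young HFSCs, a difference of 0.68 ± 0.47 (SE, limma adjusted p = 0.932). Pmaip1 was lower in both states, at -1.72 and -2.68 in plucked and unplucked aged HFSCs, against -0.69 and -1.71 in young HFSCs, and both aged arrays lay under both young ones. The difference was -1.0 ± 0.56 (SE, limma adjusted p = 0.932). Bax did likewise, with 2.89 and 2.29 in plucked and unplucked aged HFSCs, against 3.24 and 2.91 in young HFSCs, a difference of -0.48 ± 0.32 (SE, limma adjusted p = 0.932). In all, 2 genes were higher and 3 lower in both pairs, beside 30% and 25.8% of all genes, and 55.8% of all genes had 1 direction. The groups did not overlap for Pmaip1 and Bax, both lower, beside 34.6% of all genes (20.7% higher and 13.9% lower). Bbc3 had the widest split between the states, at 1.58 in plucked and 0.35 in unplucked aged HFSCs, against 1.19 and 1.82 in young HFSCs. Its plucking response in aged mice differed from that of the other 3 mouse types together by 1.62 ± 0.60 (SE, limma adjusted p = 0.999). The aged arrays lay in the second row and the young ones in the first row of their slide, and these rows cannot be told apart from age.

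In the epidermis of aged mice Bbc3 was higher and Aen lower than in the young, neither past the threshold. None of the 10 passed limma's test, beside 0% of all 22833 tested genes, and 1 of the 10 (Bbc3) had an unadjusted p under 0.05, beside 6.53%. No pair of arrays differed by 2-fold or more in any of the 10, beside 12.1% of all genes in each pair. In both pairs 3 genes were higher and 4 lower, beside 30.6% and 24.1% of all genes (54.7% together), and groups did not overlap for 2 higher and 4 lower, beside 21.9% and 16.7% (38.7% together). All 11 tested G2 and M phase genes and 11 of the 13 immediate early genes were higher in both aged samples, and the part of either in these values was not tested. Bbc3 was higher in both pairs, at 2.37 in aged total epidermis and 2.51 in aged IFE, against 1.58 and 1.94 in the young, a difference of 0.68 ± 0.25 (SE, limma adjusted p = 0.763). Aen was lower in both, at 2.23 in aged total epidermis and 2.21 in aged IFE, against 2.67 and 2.92 in the young, a difference of -0.57 ± 0.25 (SE, limma adjusted p = 0.774). Cdkn1a differed by 0.03 ± 0.24 (SE), with a 95% interval of -0.65 to 0.70. That fit had 1 residual degree of freedom.

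In cKO against control HFSCs, 8 of the 10 genes had 1 direction in both states, 4 higher and 4 lower, beside 23.9% and 25.7% of all genes (49.6% together). None passed limma's test, as for all genes (0%), and an unadjusted p under 0.05 was reached by none of the 10 and by 6.47% of all genes. The 8 include Bax, nearly equal at 3.21 and 2.95 in plucked and unplucked cKO HFSCs, against 3.20 and 2.94 in control HFSCs. They also include Trp53inp1, at 2.79 and 3.05, against 2.83 and 3.69. Its second probe went the other way in the unplucked pair, at 0.62 and 2.06, against 1.13 and 0.66. Bbc3 was higher, at 0.74 and 0.80 in plucked and unplucked cKO HFSCs, against -0.26 and 0.22 in control HFSCs, a difference of 0.79 ± 0.55 (SE, limma adjusted p = 0.848). Sesn2 was higher, at 1.88 and -1.25 in plucked and unplucked cKO HFSCs, against 0.25 and -1.66 in control HFSCs, a difference of 1.02 ± 0.60 (SE, limma adjusted p = 0.826). Ccng1 was lower, at 0.26 and -0.26 in plucked and unplucked cKO HFSCs, against 1.07 and 0.51 in control HFSCs, a difference of -0.79 ± 0.58 (SE, limma adjusted p = 0.856). The groups of Bbc3 (higher) and Ccng1 (lower) did not overlap, beside 25.3% of all genes (12% higher and 13.3% lower). On the second slide the control arrays lay in columns 1 and 2 and the cKO arrays in columns 3 and 4. These columns cannot be told apart from the cKO.

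Aen had the largest cKO difference of the 10, -1.37 ± 0.65 (SE, limma adjusted p = 0.793). It read 3.02 and 0.56 in plucked and unplucked cKO HFSCs, against 3.54 and 2.77 in control HFSCs. The 0.56 of the unplucked cKO array is the lowest of the 12 arrays, with the next at 2.14, and the second Aen probe gave 0.30 there. Without the unplucked cKO and control arrays the difference was -0.52 for Aen, 1.64 for Sesn2, 1.0 for Bbc3, 0.69 for Mdm2, 0.41 for Cdkn1a and 0.017 for Bax. It was -0.81 for Ccng1, -0.61 for Sesn1, -0.25 for Pmaip1 and -0.033 for Trp53inp1, all from the plucked pair alone. Bax differed by 0.01 ± 0.32 (SE), with a 95% interval of -0.81 to 0.83.

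Only Cdkn1a and Sesn2 were higher in both aged and cKO HFSCs than in their own controls in 4 of 4 pairs, beside 8.24% of all genes, and none of the 10 was lower in 4 of 4, beside 7.77% (16% together). The groups overlapped for all 10, beside 2.32% of all genes without overlap (1.39% higher and 0.932% lower). Cdkn1a differed by 0.44 and 0.92 in the plucked and unplucked aged pairs and by 0.41 and 0.56 in the plucked and unplucked cKO pairs. The joint difference was 0.58 ± 0.31 (SE) with an unadjusted p of 0.105 and a limma adjusted p of 0.792. Sesn2 differed by 0.34 and 0.13 in the plucked and unplucked aged pairs and by 1.64 and 0.41 in the plucked and unplucked cKO pairs, a joint difference of 0.63 ± 0.42 (SE, limma adjusted p = 0.801). With the arrays scaled to their median, the difference of Sesn2 in aged against young HFSCs was -0.02. No gene at all passed limma's test in this joint fit (0%), where 5.87% had an unadjusted p under 0.05 and none of the 10 had. Of 30 tested further targets only 1, the stress kinase gene Plk2, was higher in 4 of 4, by 1.32 ± 0.58 (SE, limma adjusted p = 0.792). Lower in 4 of 4 were 2 of them, beside the same 8.24% and 7.77% of all genes. The median difference of the 30 was -0.09.

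**Figure D4:**
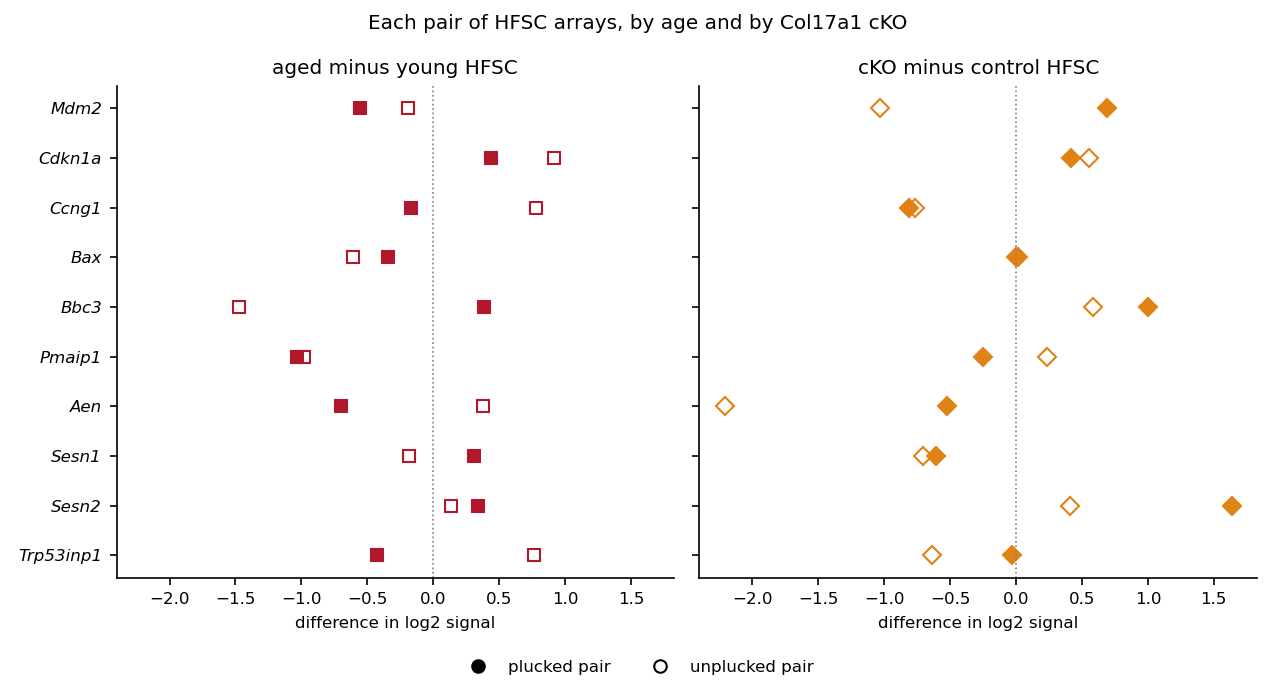
Difference in log2 signal of each gene in each pair of HFSC arrays, aged minus young on the left and cKO minus control on the right, with plucked pairs filled and unplucked pairs open. Cdkn1a and Sesn2 lie right of 0 in all 4 pairs, and the open symbol of Aen at -2.21 is the unplucked cKO pair.

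The wild-type controls of the cKO differed from the young mice most in Bbc3 and Ccng1, short of the threshold. Bbc3 read -0.26 and 0.22 in plucked and unplucked control HFSCs, against 1.19 and 1.82 in young HFSCs, a difference of -1.53 ± 0.55 (SE) with an unadjusted p of 0.0367 and a limma adjusted p of 0.571. Ccng1 read 1.07 and 0.51 in plucked and unplucked control HFSCs, against -0.45 and -0.03 in young HFSCs, a difference of 1.03 ± 0.58 (SE, limma adjusted p = 0.609). Of the 10 genes, 3 were higher and 4 lower in both pairs, beside 30.7% and 28.6% of all genes (59.3% together). Bbc3 and Ccng1 were the 2 genes whose groups did not overlap, beside 37.1% of all genes (19.6% higher and 17.5% lower). None passed limma's test, beside 0% of all genes, and 1 had an unadjusted p under 0.05, beside 8.73%. Tamoxifen, age (12 and 8 weeks) and the slide all separate these mice and cannot be told apart. The young arrays serve here and in the comparison with aged mice, and the control arrays serve here and in the comparison with cKO mice, so the differences are given side by side and not set against each other.

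Across the 12 arrays the target genes did not move as a block. Over their 45 pairs the median correlation was 0.09, with 7 pairs above 0.5 and 10 below -0.5. Cdkn1a and Sesn1 were the most opposed over 12 arrays, with r = -0.94 over 12 arrays and -0.86 over the 8 HFSC arrays. Cdkn1a and Sesn2 were the most alike, with r = 0.85 over 12 arrays and 0.88 over the HFSC arrays, and Sesn1 and Sesn2 had r = -0.80 over 12 arrays and -0.89, the lowest of the 45 pairs, over the HFSC arrays. Bbc3 and Ccng1 were opposed with r = -0.92 over 12 arrays and -0.84 over the HFSC arrays. These values describe arrays that share slides, populations and mouse types, and they carry no test.

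Among 16023 genes well above background on all arrays, the named genes closest to Cdkn1a were Pof1b, an actin-binding gene of epithelia (r = 0.96), and Adgrf4, an adhesion receptor gene (r = 0.95). Closest to Sesn1 were Capn2, a calpain protease gene (r = 0.97), Csgalnact2, an enzyme gene of chondroitin sulphate synthesis (r = 0.97), and Nxn, the nucleoredoxin gene (r = 0.96). Closest to Aen were Mrps18b, Sdad1 and Dcaf13 (r = 0.93 each). Closest to Bax were Tbca, a tubulin folding cofactor gene (r = 0.98), and Znhit1, a chromatin remodelling gene (r = 0.96), and among the closest to Mdm2 were Ddi2 (r = 0.91) and Pfkfb2 (r = 0.88). Bbc3 was closest to Jmjd1c, a demethylase family gene (r = 0.97), Ccng1 to Ccdc125 and Vhl (r = 0.94 each), Pmaip1 to Slc35b1 (r = 0.91) and Memo1 (r = 0.89), and Sesn2 to Bcl11b, a transcription factor gene (r = 0.92). The closest to Trp53inp1 were transcripts without a gene name in common use. No other target gene was among the 3 closest of any of the 10.

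**Figure D5:**
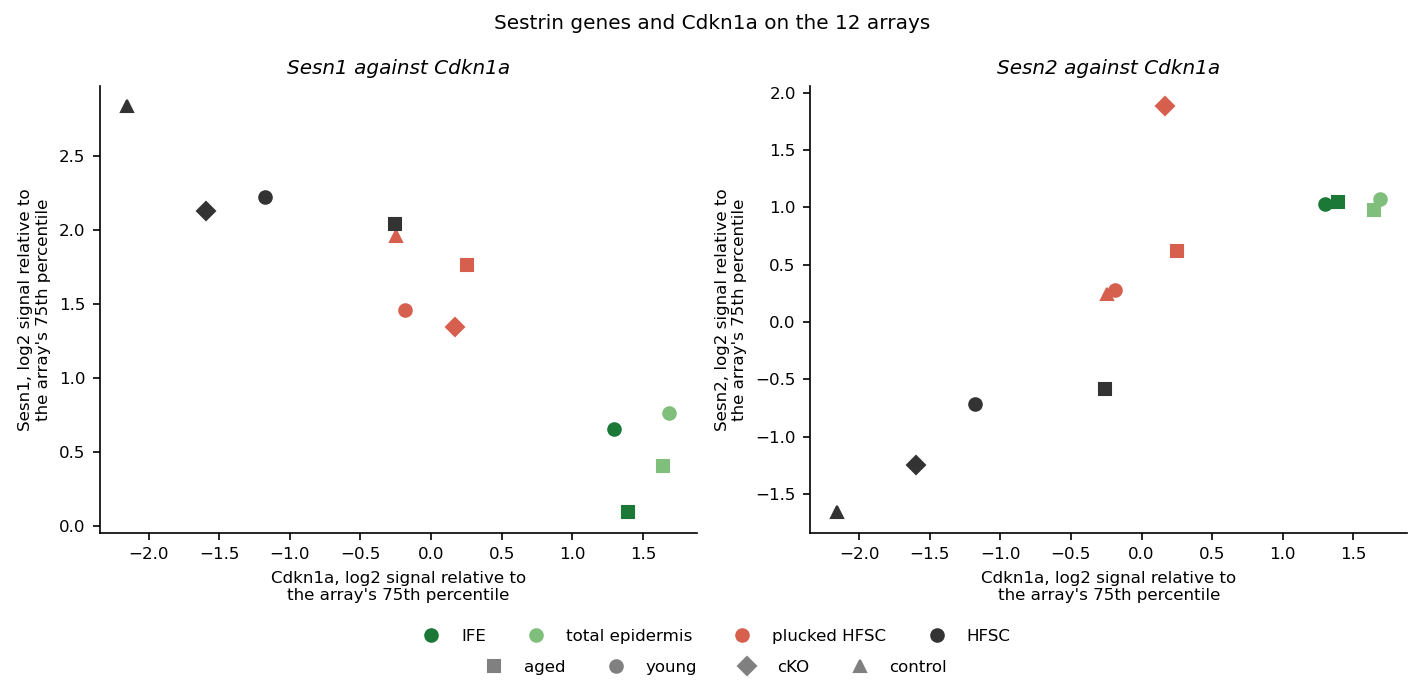
Levels of Sesn1 (left) and Sesn2 (right) against Cdkn1a on the 12 arrays, both as log2 signal relative to the array's 75th percentile, coloured by population and shaped by mouse type. Sesn1 runs against Cdkn1a (r = -0.94) and Sesn2 with it (r = 0.85), with plucked HFSCs between unplucked HFSCs and epidermis on the Cdkn1a axis.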

How the data were processed

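The authors deposited spot intensity values on a linear scale for 12 arrays, and per the file headers the scans were extracted by Agilent's software, version 10.7.3.1, with the settings of GE1_107_Sep09, which detrend the signal over the array. RNA was amplified before labelling, per the labels' protocols. A second deposited file holds log2 values, whose making is not given in the sources used here. Centred scanner values of each array matched it with r of at least 0.9998, and its direction and scale were inferred from that match.

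Control spots and 129 to 269 outlier spots of an array were removed, and no spot was saturated. From the log2 processed signal the 75th percentile of the same array was subtracted, and spots of one probe were averaged. A gene was its brightest probe. Of 55681 probes 28026 were matched by accession to a RefSeq symbol, and the others kept the array's name. Probe positions are those of the array design, mm9.

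Tests used limma 3.58.1 in R 4.3.3 with the R package data.table (version 1.17.8) (lmFit, eBayes and Benjamini-Hochberg adjustment over all genes that 2 or more of the fitted arrays measured well above background, threshold 0.05). Mouse type and plucking were additive terms over the 8 HFSC arrays, as were population and age over 6 arrays. Calls were tested on simulated data with noise of the same size for every gene. The planted differences were larger than any fitted for the 10 genes, so that test does not cover calls of their size. Array number limits the precision. The 10 genes and the gene lists were chosen with earlier results of these data known. All 10 are reported in each comparison. Of the other lists the genes named are those past the threshold, or otherwise up to 3 with the largest difference among those with 1 direction in every pair, and the 3 genes most correlated with each of the 10, of which 1 is not reported here. The lists cover p53 and its regulators, further p53 targets, the BCL2 family, ATF4 targets, G2 and M phase genes, immediate early genes and markers of skin cell types. Alternatives were normexp background correction with quantile normalization (offset 50), median scaling, quantile normalization, a stricter and no filter on dim probes, the mean over probes, outlier spots kept, the authors' table, single slides and arrays left out. Leaving out the unplucked cKO and control arrays was chosen after seeing the data. Figures used matplotlib 3.10.9 and promoter searches pandas 2.3.3 in Python 3.11.15.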

Additional observations from a re-analysis of the deposited data

Results flagged for a closer look

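Ccng1 was lower in plucked than in unplucked HFSCs in both pairs of the first slide (aged and young mice, mean -0.90) and higher in both pairs of the second slide (cKO and control mice, mean 0.53). Pmaip1 was lower in aged than in young HFSCs in both pairs (mean -1.005) and higher in aged than in young epidermis in both pairs (mean 0.32). Bax was lower in aged than in young HFSCs in both pairs (mean -0.48), while cKO minus control HFSCs gave 0.0096 on average, with both pairs just above 0. For Ccng1 and Pmaip1 every pair of one set went one way and every pair of the other the opposite way. For Bax the cKO pairs were too close to 0 to count as opposite, and median scaling gave -0.13. The difference between the sets was not tested for any of these genes.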

How the results depend on the processing

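No paired analysis was possible because each group holds 1 array, so that the replicate number is the same in all groups and cannot be a block. The fits hold mouse type, or age and population, as terms instead. Of the 10 genes, 2 passed in IFE against HFSCs, and 1 with median scaling, 0 with no filter on dim probes and 0 to 1 when 1 array was left out. In total epidermis against HFSCs 1 passed, and 3 with normexp or with the filter on every array, 2 with quantile normalization, 0 with no filter and 0 to 1 when 1 array was left out. Cdkn1a lost its call there with the mean over probes (1.27), and passed in IFE with normexp, with quantile normalization and with the filter on every array. In the other comparisons 0 of 10 passed under every alternative run. Over all genes, plucking gave 127 calls, against 1123 with normexp, 703 with the filter on every array, 273 with the mean over probes, 22 with no filter, and 0 within either slide, with any pair left out or without the unplucked cKO and control arrays. Of the calls 78.7% were higher, against 64.6% with normexp and 59.9% with the filter on every array. IFE gave 1135 calls, against 604 with no filter and 301 to 852 with an array left out, and total epidermis 934, against 1422 with normexp, 328 with no filter and 0 to 860 with an array left out.

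Signs turned for some differences under the threshold, and the causes were not tested. Median scaling moved the median of all genes by -0.26 (aged against young HFSCs), -0.14 (cKO), 0.18 (control against young), -0.20 (aged and cKO jointly), 0.20 (plucking response of aged against the other mouse types), -0.20 (total epidermis) and -0.13 (aged epidermis). It turned Sesn1 (-0.20), Sesn2 (-0.023) and Trp53inp1 (-0.088) in aged HFSCs, Bax (-0.13) in cKO, Bax (0.18) and Mdm2 (0.032) in control against young, Bbc3 (-0.073) in the joint comparison, Aen (-0.075) and Mdm2 (-0.11) in total epidermis, and Cdkn1a (-0.10) in aged epidermis. The mean over probes turned Cdkn1a in aged epidermis (-0.16) and Trp53inp1 in the joint comparison (0.19), the cKO (0.053) and the plucking response of cKO against the other mouse types (-0.31). Trp53inp1 in the joint comparison turned with normexp (0.0079) and quantile normalization (0.049), as did Bax in aged epidermis (0.076 and 0.029). Within the second slide, plucking gave -0.26 for Bbc3, 0.53 for Ccng1 and 0.24 for Mdm2. Without the unplucked cKO and control arrays Mdm2 in cKO was 0.69. With arrays or pairs left out, plucking ranged over -0.38 to 0.24 for Bbc3 and -0.43 to 0.21 for Ccng1. The joint comparison ranged over -0.48 to 0.0096 for Bax, -0.54 to 0.79 for Bbc3, -0.79 to 0.30 for Ccng1, -0.66 to 0.061 for Sesn1 and -0.33 to 0.17 for Trp53inp1. The plucking response of cKO against the other mouse types ranged over -0.44 to 0.49 for Bbc3 and -0.26 to 0.039 for Sesn1. IFE ranged over -0.47 to 0.14 for Bax and -0.23 to 0.71 for Aen, and total epidermis over -0.18 to 1.97 for Bbc3 and -0.35 to 0.60 for Aen.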

Other observations

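The BCL2 family regulates mitochondrial cell death and includes Bax, Bbc3 and Pmaip1. Of its 10 other genes tested in plucked against unplucked HFSCs none passed, with a median difference of -0.11, and in all 4 pairs 1 was higher and 3 were lower, beside 14% and 15.2% of all genes. Mcl1 and Bcl2l2, which protect cells from death, differed by -0.78 ± 0.23 and -1.09 ± 0.32 (SE) in plucked against unplucked HFSCs, with limma adjusted p of 0.194 and 0.192. Bak1, which like Bax forms pores, differed by 1.52 ± 0.61 (SE, limma adjusted p = 0.288). The rest of the list was mixed, with Bcl2l11 at 1.52, Bcl2 at 0.28, Bad at 0.11 and Bid at 0.06. Bcl2l1 differed by -0.28, Bok by -0.56 and Bmf by -1.75. A shift of the family towards death or survival was not tested.

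Sesn2 and Pmaip1 are known as targets of ATF4, the factor of the integrated stress response, as well as of p53. Of 9 tested genes of an ATF4 target list none passed in plucked against unplucked HFSCs or in either epidermal comparison. After plucking their median difference was 0.77, with Psat1, a serine synthesis enzyme gene, at 2.11 ± 0.60 (SE, limma adjusted p = 0.182). In IFE the median was 0.29, with Trib3, a pseudokinase gene, at 2.05 ± 0.35 (SE, limma adjusted p = 0.0519). Trib3 was well above background on 1 of the 2 HFSC arrays of that comparison, so the size of its difference is uncertain.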
